A study of Arabidopsis thaliana with 8 samples.

Results

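Messenger RNA was sequenced from whole Arabidopsis thaliana seedlings, and 4 libraries labelled chr11/17 or rlt1/2 were set against 4 libraries labelled fha2 or Col. The measure is the mean of the 2 genotypes on each side, and the genes in which all 4 libraries of one side lie above all 4 of the other are called the core. Of 25198 genes in the deposited table, 20866 passed a filter on low counts, and 8526 of these (40.9%) belong to the core: 4143 with the double mutants above and 4383 with them below. All 8 libraries of the series enter, 2 per genotype. The labels give chr11-/-chr17-/- and rlt1-/-rlt2-/- as the double mutants, fha2-/- as a single mutant and Col as the wild type, and all 4 are in the Col background. Seedlings at day 11 on MS plates in long days (16 h light and 8 h dark at 22 °C) gave 0.05 g per RNA extraction. The sources used here give neither the alleles nor whether each library came from separately grown plants. A p-value therefore refers to the scatter among these libraries, some of which may be technical.

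ISWI complexes are chromatin remodellers that slide and space nucleosomes with the energy of ATP. In Arabidopsis CHR11 and CHR17 are the ATPases, RLT1 and RLT2 are DDT-domain partners of those ATPases, and FHA2 carries a forkhead-associated domain that binds phosphorylated proteins. Loss of the ATPases or of the RLT partners is known for early flowering and for small plants. Per its title, the series is about an ISWI subunit found in plants and needed for fertility and pistil growth. The comparison here asks which transcripts set the lines labelled as mutant in the ATPases or the RLT proteins apart from both fha2 and wild type plants.

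Library totals were 20962202 to 22012119 expected counts. The 20 genes with the most counts took 7.73% to 8.49% of the counts in the libraries labelled chr11/17 and 14.5% to 14.6% in those labelled rlt1/2, against 16.5% to 17.4% in fha2 and 21.4% to 22.5% in Col. Levels are CPM, the usual depth-scaled counts, with TMM factors between libraries. Fold changes are log2, and a gene is called at a Benjamini-Hochberg adjusted p under 0.05 in the edgeR quasi-likelihood test across all tested genes.

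Under the labels that name them, the transcripts of RLT1, RLT2 and FHA2 were lower, and those of CHR11 and CHR17 were not. RLT2 (AT5G44180) had 27 and 25.2 CPM in the libraries labelled chr11/17 and 2.19 and 2.21 CPM in those labelled rlt1/2, against 31.8 and 34.4 CPM in fha2 and 28.2 and 34.1 CPM in Col. RLT1 (AT1G28420) had 52.8 and 38.9 CPM in the libraries labelled chr11/17 and 15.9 and 16.8 CPM in those labelled rlt1/2, against 29.1 and 31.5 CPM in fha2 and 25.4 and 35.7 CPM in Col. FHA2 (AT3G07220) had 22.6 and 22.7 CPM in the libraries labelled chr11/17 and 22 and 20.1 CPM in those labelled rlt1/2, against 3.05 and 1.01 CPM in fha2 and 23.5 and 24.4 CPM in Col. Both RLT transcripts were therefore lowest where the label names them, and FHA2 was low in fha2 alone, which by itself gave FHA2 a log2 fold change of 1.65 between the sides.

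CHR11 (AT3G06400) had 73.4 and 69.7 CPM in the libraries labelled chr11/17 and 49 and 50.7 CPM in those labelled rlt1/2, against 46.1 and 43.5 CPM in fha2 and 47.2 and 46.3 CPM in Col. CHR17 (AT5G18620) had 22.6 and 22.9 CPM in the libraries labelled chr11/17 and 30.7 and 26.4 CPM in those labelled rlt1/2, against 20.8 and 20.8 CPM in fha2 and 17.2 and 22.5 CPM in Col. Neither ATPase transcript was lower under the label that names it. With side as the only term the calls of CHR11, CHR17, RLT2 and FHA2 between the sides were lost. CHR17 and RLT1 overlap a neighbour each, and with that gene's counts added CHR17 was at log2 -0.02 in place of 0.33. For both ATPases, the sources used here do not say where the mutations lie within the genes. For this reason most library values carry the wording "labelled chr11/17", and genotype names elsewhere stand for the labels only. List counts are also given for rlt1/2 alone over Col and fha2. That is a contrast within the same fit, in which the chr11/17 libraries still enter the scaling and the estimate of spread.

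Among the other ISWI list members, PTM, a DDT-domain protein tied to plastid signalling, fell (log2 fold change -0.61 ± 0.0686 SE, adjusted p = 5.58e-06). The WD-repeat histone-binding proteins MSI1, MSI2 and MSI3 rose by log2 0.51, 0.59 and 0.69, each with a neighbouring gene that overlaps it. With the neighbours' counts added they were at 0.57, 0.41 and 0.37. RLT3 and ARID5 were not called, at log2 0.15 (adjusted p = 0.428) and 0.08 (adjusted p = 0.371). In all 6 of 11 tested list members were called higher and 2 lower, with CHR11, CHR17 and FHA2 among the higher.

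Most genes differed between the sides. The test called 14412 genes, 69.1% of those tested, with 7226 higher (34.6%) and 7186 lower (34.4%) in the double mutant libraries. At least 2-fold differences were found for 2137 of the called higher and 2118 of the called lower genes. The core took in 19.9% of tested genes as higher and 21% as lower, and 4093 of the 4143 core genes that were higher and 4341 of the 4383 that were lower were also called, an overlap that the choice of the core largely fixes. When side was the only term of the fit, so that the difference between the genotypes of a side counts as error, 4162 genes (19.9%) were called higher and 3429 (16.4%) lower, and 3659 of the core higher and 3273 of the core lower genes were among them. In the contrast that leaves chr11/17 out, rlt1/2 alone differed from Col and fha2 in 4699 genes higher (22.5%) and 4482 lower (21.5%). Scaling by total counts in place of TMM moved the median of all genes by 0.16 and turned the split into 8796 called higher and 5500 lower, so small folds in either direction depend on the scaling. The list counts that follow are to be read against these shares of all tested genes: 34.6% higher and 34.4% lower between the sides, 19.9% and 16.4% with side as the only term, and 22.5% and 21.5% for rlt1/2 alone. For chr11/17 alone over Col and fha2, 7673 of the 20866 tested genes were called higher and 7690 lower.

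The gap between the sides was narrow for most of the core. Its median was 0.21 (log2 of CPM plus 0.5) for the higher genes and 0.22 for the lower ones, and 196 higher and 145 lower genes had a gap of at least 1. Just inside the core lay GTA2, a transcription elongation factor subunit, with 60.2, 56, 53.9 and 52.7 CPM in the libraries labelled chr11/17 and rlt1/2 against 48.3, 39.7, 51.3 and 52.7 CPM in fha2 and Col, its call being lost without fha2 replicate 2. RFI2 lay just inside on the lower side, with 50.5, 46.6, 70 and 76.1 CPM against 85.5, 76.1, 120 and 108 CPM, and it overlaps a neighbour. With that neighbour's counts added RFI2 was at log2 -0.01 in place of -0.69. Just outside were ISU2 (4.76, 5.36, 0.0876 and 0 CPM against 0 in all 4 libraries of fha2 and Col) and PAP5 (0 in all 4 libraries against 0.309, 0, 1.32 and 1.97 CPM), which tie at 0 with the other side.

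**Figure D1:**
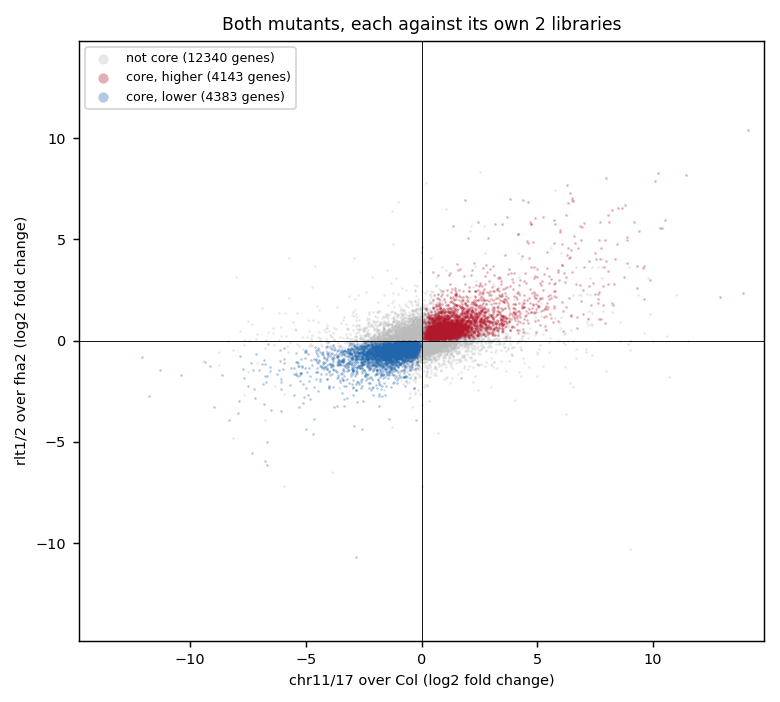
Log2 fold change of chr11/17 over Col (x axis) and of rlt1/2 over fha2 (y axis) for the 20866 tested genes, each point a gene, with the 4143 core genes that were higher in red, the 4383 that were lower in blue and the rest in grey. The axes share no library. The core points spread more widely along x than along y.

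Both mutant labels were compared through pairs of contrasts that share no library. Of 7255 genes called higher in chr11/17 over Col (34.8%) and 4361 called higher in rlt1/2 over fha2 (20.9%), 3217 were higher in both, which is 44.3% of the first set and 73.8% of the second. Of 7171 called lower in chr11/17 over Col (34.4%) and 4221 called lower in rlt1/2 over fha2 (20.2%), 3263 were lower in both, or 45.5% and 77.3%. Another 611 genes were called in both with opposite signs. Across the 20866 genes these 2 fold changes had a Pearson r of 0.59 and a Spearman rho of 0.60, and the other split, chr11/17 over fha2 with rlt1/2 over Col, gave 0.58 and 0.58. These are correlations across genes, which are not independent replicates.

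The change was larger in the libraries labelled chr11/17 for most of the core. Core genes that were higher had a median log2 fold change of 1.12 in chr11/17 and 0.56 in rlt1/2, each over the mean of Col and fha2, and core genes that were lower had -1.11 and -0.51. The larger change lay with chr11/17 for 3585 of the core higher genes and 3919 of the core lower genes. The direct test of chr11/17 against rlt1/2 called 12386 genes, 59.4% of those tested. Among the core it called 2849 of the 4143 higher and 2886 of the 4383 lower genes.

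The highest fold changes of the core belonged to seed maturation genes. The list of seed storage proteins and their regulators had 12 tested members, of which 10 were called higher and none lower, with a median log2 fold change of 6.32 against 0.00 over all tested genes. For rlt1/2 alone, 9 of the 12 were called higher and none lower, and with side as the only term 10 and none. CRU3 (AT4G28520), a cruciferin that seeds store as a nitrogen reserve, had 148 and 57.9 CPM in the libraries labelled chr11/17 and 39.3 and 34.1 CPM in those labelled rlt1/2, against 0 and 0.0439 CPM in fha2 and 0 in both Col libraries. That is 1 count over the 4 libraries of fha2 and Col, so CRU3 is given as a ratio of counts, 5678-fold with an exact 95% interval of 1019 to 224290 for counting error only.

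CRA1 (AT5G44120), another cruciferin, had 216 and 100 CPM in the libraries labelled chr11/17 and 54.4 and 46.1 CPM in those labelled rlt1/2, against 0.662 and 0.395 CPM in fha2 and 0.164 and 0.693 CPM in Col. SESA3 (AT4G27160), a small albumin of the seed, had 12.3 and 2.98 CPM in the libraries labelled chr11/17 and 2.15 and 2.52 CPM in those labelled rlt1/2, against 0 and 0.0877 CPM in fha2 and 0 in both Col libraries. In all 3 genes the first chr11/17 library stood highest, at least 2-fold above the second.

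The promoters of these 3 genes are shown because the RY element, bound by the seed regulators ABI3, FUS3 and LEC2, is a motif known from storage protein promoters. Each is the 300 bases before the gene start, read 5′ to 3′ along the gene's strand from the RefSeq annotation and sequence of TAIR10.1, with the letters of CATGCA on either strand in capitals. CRU3 lies on the plus strand (chr4:14087256-14087555), CRA1 on the minus strand (chr5:17758337-17758636) and SESA3 on the plus strand (chr4:13611496-13611795).
CRU3: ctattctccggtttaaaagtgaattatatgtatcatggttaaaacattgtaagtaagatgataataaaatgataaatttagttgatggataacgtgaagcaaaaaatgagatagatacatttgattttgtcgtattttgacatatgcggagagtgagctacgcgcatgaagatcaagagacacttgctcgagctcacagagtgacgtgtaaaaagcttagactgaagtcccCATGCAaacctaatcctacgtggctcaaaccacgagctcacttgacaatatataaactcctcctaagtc
CRA1: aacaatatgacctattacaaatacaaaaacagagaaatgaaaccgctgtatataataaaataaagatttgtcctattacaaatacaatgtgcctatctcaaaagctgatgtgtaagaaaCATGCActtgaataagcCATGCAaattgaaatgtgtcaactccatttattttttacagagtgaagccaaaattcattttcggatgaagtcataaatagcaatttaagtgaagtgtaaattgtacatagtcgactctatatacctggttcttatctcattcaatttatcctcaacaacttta
SESA3: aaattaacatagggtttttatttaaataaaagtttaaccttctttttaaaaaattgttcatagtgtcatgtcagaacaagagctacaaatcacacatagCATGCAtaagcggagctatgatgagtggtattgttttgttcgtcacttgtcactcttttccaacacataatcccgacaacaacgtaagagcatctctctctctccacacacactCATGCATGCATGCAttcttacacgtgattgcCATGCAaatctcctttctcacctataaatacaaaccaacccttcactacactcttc
CRU3 holds 1 match, CRA1 2 and SESA3 7, of which some overlap each other. Among the tested members of the seed list 9 of 12 promoters (75%) hold CATGCA, against 2047 of 20865 promoters of tested genes (9.81%). The G-box CACGTG stands in 6 of 12 (50%), against 8.12% of all. A match describes the letters of the window and says nothing of binding.

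Other seed storage genes were high in the double mutants as well. SESA1 had 59.1 and 26.1 CPM in the libraries labelled chr11/17 and 6.13 and 4.68 CPM in those labelled rlt1/2, against 0.221 and 0 CPM in fha2 and 0.0548 and 0 CPM in Col (log2 fold change 7.94 ± 0.559 SE, adjusted p = 8.18e-08). SESA2, the late embryogenesis genes M17 and LEA18, the seed peroxiredoxin PER1 and the gibberellin-regulated GASA3 lay at log2 5.66 to 5.96. Not all of the list moved: the oleosin OLEO4 was at log2 -0.27 (adjusted p = 0.195). Of the transcriptional regulators of seed maturation ABI3 was at log2 1.08 (adjusted p = 0.351), and FUS3, LEC1, LEC2 and L1L had too few counts to be tested. The 9 markers of maturing seed summed to 101 to 484 CPM in the libraries labelled chr11/17 and rlt1/2, against 0.548 to 1.55 CPM in fha2 and Col, with CRU2 and SESA4, which fell under the filter, in the sum. Under the same 2 labels the whole seed list summed to 107 to 497 CPM. The marker sum lay close to it and is not to be read as a separate measure. Whether seed material was present in some samples was not tested, and in bulk seedlings a change in the number of cells of a type cannot be told apart from a change in RNA per cell.

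Floral organ identity genes rose, led by AP3 (AT3G54340), the MADS-box factor of petals and stamens. AP3 had 39.8 and 41 CPM in the libraries labelled chr11/17 and 11.1 and 13.2 CPM in those labelled rlt1/2, against 0.132 and 0.351 CPM in fha2 and 0.274 and 0.373 CPM in Col (log2 fold change 6.27 ± 0.167 SE, adjusted p = 7.19e-11). SEP1 (AT5G15800), a MADS-box factor of all flower whorls that overlaps a neighbouring gene, had 19.9 and 17.4 CPM in the libraries labelled chr11/17 and 16.2 and 15.8 CPM in those labelled rlt1/2, against 0.618 and 0.526 CPM in fha2 and 0.219 and 0.32 CPM in Col. AP3 was higher in chr11/17 than in rlt1/2, while the SEP1 libraries of both labels lay close together (log2 difference 0.22, adjusted p = 0.127). With the counts of the overlapping gene added, SEP1 was at log2 1.48 in place of 5.43.

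SEP3 had 266 and 200 CPM in the libraries labelled chr11/17 and 126 and 129 CPM in those labelled rlt1/2, against 9.05 and 19.2 CPM in fha2 and 3.78 and 6.45 CPM in Col. SEP2 and STK, an ovule identity gene, were high in the libraries labelled chr11/17: SEP2 had 13.8 and 9.65 CPM there and 0.175 and 0.0867 CPM in those labelled rlt1/2, against 0 to 0.0548 CPM in fha2 and Col. Of 10 tested list members 8 were called higher and none lower, the median was log2 3.05, and 5 belonged to the core. For rlt1/2 alone the count was 5 higher and none lower, for chr11/17 alone 8 and 1, and with side as the only term 7 and none. AP2 and SEP4 were not called (log2 -0.05, adjusted p = 0.534, and log2 -0.37, adjusted p = 0.07), and PI and AG, partners of AP3 and the SEP factors in flowers, stayed under the filter with at most 0.383 and 0.694 CPM in any library. The 8 flower markers (AP1, AP3, SEP1, SEP2, SEP3, SHP1 and the untested PI and AG) summed to 155 to 341 CPM in the libraries labelled chr11/17 and rlt1/2, against 5.7 to 20.9 CPM in fha2 and Col. This sum takes in AP3 and the SEP genes given above, and SEP3 alone made up most of it in every library. It is therefore not a separate measure of flower cells.

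Genes of pistil growth, the subject of the series title, went both ways. Of 13 tested, 3 were called higher (ALC, SHI and NGA3) and 6 lower, beside 34.6% and 34.4% of all tested genes. In the core 5 of the list were lower, beside 21% of all tested genes. RPL, a homeodomain factor of the replum, had 1.95 and 2.3 CPM in the libraries labelled chr11/17 and 6.96 and 7.76 CPM in those labelled rlt1/2, against 12.3 and 12.6 CPM in fha2 and 15.8 and 12.8 CPM in Col (log2 fold change -1.75 ± 0.109 SE, adjusted p = 2.98e-08). NGA2, a B3 factor of style development, fell by log2 2.15. In rlt1/2 alone 1 member was called higher and 4 lower, and with side as the only term none and 4.

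Flowering-time regulators included repressors that fell and repressors that rose. Of 14 repressors tested, 9 were called lower and 3 higher, against 11 and 2 for rlt1/2 alone and 6 and 3 with side as the only term. SNZ, an AP2-type repressor of flowering, had 0.544 and 0.935 CPM in the libraries labelled chr11/17 and 3.15 and 4.08 CPM in those labelled rlt1/2, against 28.8 and 23.9 CPM in fha2 and 21.3 and 21.2 CPM in Col. SVP (AT2G22540), a MADS-box repressor of flowering, had 14.4 and 13.8 CPM in the libraries labelled chr11/17 and 51.1 and 52.6 CPM in those labelled rlt1/2, against 79.7 and 81.6 CPM in fha2 and 81.3 and 76.5 CPM in Col. SVP fell by log2 1.56 (adjusted p = 8.12e-10), a call that was lost with side as the only term (-1.27).

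The FLC clade split. FLC had 0 and 0.0425 CPM in the libraries labelled chr11/17 and 0.0876 and 0.0867 CPM in those labelled rlt1/2, against 0.662 and 0.658 CPM in fha2 and 3.62 and 4.48 CPM in Col. MAF3 fell under both mutant labels (log2 -2.02 in chr11/17 and -2.28 in rlt1/2 over Col and fha2). MAF5 rose, with 7.3 and 4.12 CPM in the libraries labelled chr11/17 and 9.77 and 8.59 CPM in those labelled rlt1/2, against 0.839 and 0.877 CPM in fha2 and 4.06 and 4.11 CPM in Col. The second chr11/17 library of MAF5 barely clears the Col libraries, while fha2 lies well below. SMZ and TOE2, AP2-type repressors related to SNZ, rose by log2 1.24 and 0.73, and SMZ overlaps a neighbour.

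Among 11 tested promoters of flowering 3 were called higher and 6 lower, against 2 and 2 for rlt1/2 alone and 1 and 2 with side as the only term. FT, the mobile flowering signal, had 0.726 and 0.68 CPM in the libraries labelled chr11/17 and 2.15 and 2.17 CPM in those labelled rlt1/2, against 0.132 and 0.175 CPM in fha2 and 0.384 and 0.107 CPM in Col. FT was among the core genes with the larger change in rlt1/2 (log2 difference of chr11/17 minus rlt1/2 -1.61, adjusted p = 0.0026). SOC1 fell (log2 fold change -0.92, adjusted p = 5.37e-05) and SPL3, an SBP-box factor, fell by log2 1.45.

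**Figure D2:**
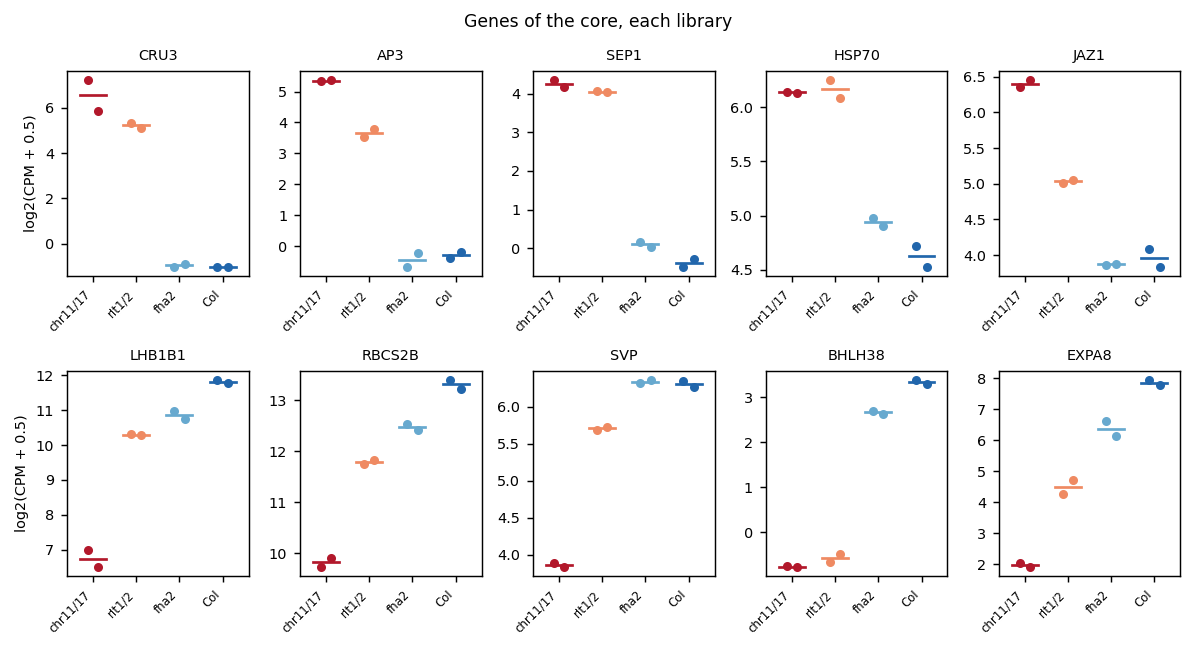
Log2 of CPM plus 0.5 in each library (points) and the mean of 2 libraries (lines) for 10 core genes, with the genotypes chr11/17, rlt1/2, fha2 and Col from left to right. SEP1, HSP70 and BHLH38 lie at like levels under both mutant labels, while SVP and LHB1B1 are far lower in chr11/17 than in rlt1/2.

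Photosynthesis transcripts fell as a whole list, in steps across the 4 genotypes. All 31 tested members of the light-harvesting and photosystem list were called lower, 29 of them in the core, with a median of log2 -1.19. The median was -1.77 for chr11/17 and -0.52 for rlt1/2, each over Col and fha2, and fha2 itself was at -0.55 over Col. The list summed to 60986 and 44766 CPM in the libraries labelled chr11/17 and 126350 and 125927 CPM in those labelled rlt1/2, against 158313 and 149296 CPM in fha2 and 240688 and 217200 CPM in Col. Each genotype thus lay below the next in this order, with no overlap between them. The 6 leaf mesophyll markers, all called lower, summed to 20094 to 22604 CPM in the libraries labelled chr11/17 and 56789 to 57459 CPM in those labelled rlt1/2, against 63170 to 67146 CPM in fha2 and 95814 to 109958 CPM in Col, and their part in the list was not tested. All 31 were also called lower in rlt1/2 alone, while with side as the only term 10 were left.

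LHB1B1 (AT2G34430), a chlorophyll-binding protein of the photosystem II antenna, had 126 and 90.7 CPM in the libraries labelled chr11/17 and 1271 and 1239 CPM in those labelled rlt1/2, against 1994 and 1715 CPM in fha2 and 3704 and 3526 CPM in Col (log2 fold change -2.81 ± 0.108 SE, adjusted p = 6.98e-10). Its change in chr11/17 was log2 -4.58 and in rlt1/2 -1.04, and with side as the only term its call was lost. CAB3 fell by log2 2.31, with 915 and 653 CPM in the libraries labelled chr11/17 and 3697 and 3904 CPM in those labelled rlt1/2, against 7158 and 6535 CPM in fha2 and 11458 and 10036 CPM in Col. Antenna genes of the CAB family and the Rubisco small subunit genes resemble each other closely, and how reads were shared out among the copies is uncertain.

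Enzymes of the Calvin cycle followed, with 17 of 18 called lower and 13 in the core (median log2 -1.10, 15 lower in rlt1/2 alone and 7 with side as the only term). RBCS2B (AT5G38420), a small subunit of Rubisco, had 852 and 962 CPM in the libraries labelled chr11/17 and 3462 and 3627 CPM in those labelled rlt1/2, against 5930 and 5473 CPM in fha2 and 10778 and 9614 CPM in Col (log2 fold change -2.09 ± 0.0889 SE, adjusted p = 1.36e-09). Its promoter on the minus strand (chr5:15382072-15382371, TAIR10.1) is shown for the I-box GATAAG, a motif known from light-regulated Rubisco promoters, in capitals on either strand.
RBCS2B: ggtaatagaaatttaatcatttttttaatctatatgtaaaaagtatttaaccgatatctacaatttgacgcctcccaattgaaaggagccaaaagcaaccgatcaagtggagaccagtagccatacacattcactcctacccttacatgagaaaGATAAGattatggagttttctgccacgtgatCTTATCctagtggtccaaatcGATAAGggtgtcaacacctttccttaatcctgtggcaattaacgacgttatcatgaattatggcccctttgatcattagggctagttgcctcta
The window holds 3 matches. In the light-harvesting list 9 of 31 promoters (29%) and in the Calvin cycle list 4 of 18 (22.2%) hold the I-box, against 3036 of 20865 (14.6%) of all tested genes. Across the 27 lists the share ran from 0% (flavonoid and anthocyanin) to 36.8% (sugar starvation), with jasmonate genes at 29.6%. The I-box is therefore not particular to the photosynthesis lists.

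Chlorophyll synthesis and plastid regulators fell too. Of 17 chlorophyll enzymes 16 were called lower and 14 were in the core, and all 10 plastid regulators, the sigma factors and the GLK and GATA factors, were called lower (median log2 -0.95 for both lists). PORB, a light-dependent protochlorophyllide reductase that overlaps a neighbour, had 78.7 and 67.4 CPM in the libraries labelled chr11/17 and 219 and 228 CPM in those labelled rlt1/2, against 388 and 409 CPM in fha2 and 529 and 531 CPM in Col. PORA, its seedling relative, fell under both mutant labels (log2 -3.77 in chr11/17 and -3.34 in rlt1/2, difference -0.44, adjusted p = 0.383). SIG3, a sigma factor of plastid RNA polymerase, had 14.2 and 14.3 CPM in the libraries labelled chr11/17 and 20.9 and 19.6 CPM in those labelled rlt1/2, against 34.8 and 32.6 CPM in fha2 and 33.7 and 35.1 CPM in Col. With side as the only term 12 of the 17 chlorophyll genes and 9 of the 10 regulators were called lower, and in rlt1/2 alone 16 and 10.

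Further large decreases of the core lay in the same order of genotypes. BBX27, a B-box zinc finger protein, had 0.862 and 0.85 CPM in the libraries labelled chr11/17 and 18.4 and 19.5 CPM in those labelled rlt1/2, against 62.5 and 62.9 CPM in fha2 and 89.3 and 99.2 CPM in Col (log2 fold change -4.25 ± 0.0848 SE, adjusted p = 8e-12). HOL2, a methyltransferase-like protein, and ACD6, an ankyrin-repeat membrane protein on the salicylic acid list, fell by log2 4.37 and 3.94.

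Auxin response repressors and growth genes fell. Of 26 Aux/IAA repressors 19 were called lower and 2 higher, with a median of log2 -0.66, and of 24 SAUR and cell-wall genes 17 were lower and 3 higher, with a median of -1.42. With side as the only term 8 and 11 were called lower. SAUR22, one of the small auxin-induced growth proteins, had 0 in both libraries labelled chr11/17 and 2.06 and 3.12 CPM in those labelled rlt1/2, against 7.15 and 6.98 CPM in fha2 and 11.6 and 16.5 CPM in Col. IAA29 fell to 0.181 and 0.0425 CPM in the libraries labelled chr11/17 and 2.15 and 2.95 CPM in those labelled rlt1/2, against 9.45 and 9.04 CPM in fha2 and 19.5 and 27.7 CPM in Col. EXPA8, an expansin that loosens the wall, had 3.63 and 3.27 CPM in the libraries labelled chr11/17 and 18.9 and 26 CPM in those labelled rlt1/2, against 97.9 and 70.1 CPM in fha2 and 245 and 221 CPM in Col (log2 fold change -3.99 ± 0.133 SE, adjusted p = 2.93e-10).

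The exceptions were wall enzymes and weak repressor calls. XTH24, a xyloglucan endotransglucosylase, had 325 and 357 CPM in the libraries labelled chr11/17 and 122 and 135 CPM in those labelled rlt1/2, against 76.6 and 105 CPM in fha2 and 52 and 46.4 CPM in Col. XTH18 rose by log2 1.14. EXPA10 (log2 0.36), IAA11 (0.53) and IAA31 (0.82) were called higher, but all 3 calls were lost with side as the only term. IAA11 also lost its call once the counts of the overlapping gene were added (log2 0.15), and IAA31 lost it without any 1 of 4 libraries (the rlt1/2 libraries, fha2 replicate 1 and Col replicate 2). In rlt1/2 alone 16 Aux/IAA genes and 17 growth genes were called lower and 0 and 3 higher.

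Heat-response genes mostly rose. Of 19 tested, 15 were called higher and none lower between the sides, while chr11/17 alone over Col and fha2 had 12 higher and 3 lower, and rlt1/2 alone 14 and none. Of the list 10 were in the core, and the median was log2 1.13 in chr11/17 and 1.20 in rlt1/2, each over Col and fha2, against 0.32 in fha2 over Col. HSP70 (AT3G12580), a cytosolic chaperone, had 70 and 69.8 CPM in the libraries labelled chr11/17 and 75.7 and 67.6 CPM in those labelled rlt1/2, against 31 and 29.5 CPM in fha2 and 25.9 and 22.6 CPM in Col. The difference between the mutant labels was log2 -0.04 (adjusted p = 0.761). HSP90.1, a chaperone induced by heat, had 53.4 and 53.1 CPM in the libraries labelled chr11/17 and 46.5 and 38.8 CPM in those labelled rlt1/2, against 10.7 and 10.5 CPM in fha2 and 7.95 and 8.05 CPM in Col (log2 fold change 2.37 ± 0.0789 SE, adjusted p = 2.86e-10).

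Members of the heat list differed in which mutant label carried the larger change. The small chaperone HSP17.8 was higher in chr11/17 (log2 3.37) than in rlt1/2 (2.08), and the heat shock factor HSFA2 was higher in rlt1/2 (4.19) than in chr11/17 (2.00), with adjusted p = 1.91e-05 and 3.06e-06 for those differences. With side as the only term 10 heat genes were called higher and none lower. The heat shock form GAANNTTC stood in 7 of 19 promoters of the list (36.8%) and in 11.2% of all tested promoters, and the site II form TGGGCC in 8 of 19 (42.1%) and 17.1%.

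Jasmonate genes rose more often than they fell, with 19 of 27 called higher and 5 lower. JAZ1, a repressor of jasmonate response that the hormone itself induces, had 81.1 and 87.2 CPM in the libraries labelled chr11/17 and 31.8 and 32.8 CPM in those labelled rlt1/2, against 14 and 14.2 CPM in fha2 and 16.5 and 13.8 CPM in Col. JAZ5 was more one-sided, with 25.9 and 21.5 CPM in the libraries labelled chr11/17 and 2.32 and 2.78 CPM in those labelled rlt1/2, against 1.19 and 0.79 CPM in fha2 and 0.877 and 1.07 CPM in Col. JAZ7 changed by log2 2.66 in chr11/17 and 2.80 in rlt1/2. In rlt1/2 alone the list had 10 genes higher and 3 lower, with side as the only term 14 and 2, and total-count scaling left 3 lower.

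Flavonoid and anthocyanin genes rose, in fha2 as well. Of 18 tested, 12 were called higher and 1 lower, both between the sides and in rlt1/2 alone, with a median of log2 1.36. With side as the only term 10 were called higher and 1 lower. The median of fha2 over Col was 1.10, and 13 of the 18 were called in that comparison, beside 15.1% of all tested genes. F3H, an enzyme early in flavonoid synthesis, had 259 and 282 CPM in the libraries labelled chr11/17 and 129 and 151 CPM in those labelled rlt1/2, against 85.6 and 90.7 CPM in fha2 and 60 and 56.1 CPM in Col. TT19, a glutathione transferase of anthocyanin transport, showed the same steps at 175 and 180 CPM in the libraries labelled chr11/17 and 51.4 and 63.3 CPM in those labelled rlt1/2, against 41.9 in both fha2 libraries and 16.3 and 14.3 CPM in Col. TT19 overlaps another gene, and with that gene's counts added its fold change was -0.09 in place of 1.99. The exception was TTG1, a WD-repeat regulator of the pathway, which fell (log2 -0.65, adjusted p = 4.72e-05).

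Iron genes went both ways. Of 18 tested, 10 were called lower and 5 higher, against 11 and 5 in rlt1/2 alone and 7 and 5 with side as the only term. The bHLH factors that switch on iron uptake were near 0 under both mutant labels: BHLH38 had 0.0907 and 0.085 CPM in the libraries labelled chr11/17 and 0.131 and 0.217 CPM in those labelled rlt1/2, against 6.01 and 5.7 CPM in fha2 and 9.92 and 9.38 CPM in Col. BHLH100 had 0 and 0.0425 CPM in the libraries labelled chr11/17 and 0.175 and 0.607 CPM in those labelled rlt1/2, against 6.93 and 5.26 CPM in fha2 and 9.7 and 8.16 CPM in Col. BHLH101 (log2 -6.42) and BHLH39 (log2 -3.95) moved with them. BHLH38 and BHLH101 overlap neighbours, and with those counts added they were at log2 -2.60 (in place of -5.86) and -1.57.

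The ferritins FER1, FER3 and FER4, which store iron in plastids, were among the 5 that rose. FER1 had 1127 and 1044 CPM in the libraries labelled chr11/17 and 322 and 301 CPM in those labelled rlt1/2, against 171 and 216 CPM in fha2 and 219 and 168 CPM in Col (log2 fold change 1.59 ± 0.0987 SE, adjusted p = 2.82e-08). The other 2 were the nicotianamine synthase NAS1 and the vacuolar iron transporter-like VTL1. BTS, a ubiquitin ligase that restrains the iron response, fell to 17.3 and 21.2 CPM in the libraries labelled chr11/17 and 23.9 and 26 CPM in those labelled rlt1/2, against 54.6 and 56.6 CPM in fha2 and 54.5 and 58.5 CPM in Col. IRT1, the root iron transporter, and FRO2, its partner reductase, fell by log2 2.28 and 2.76. Root markers, of which 2 of 16 were called higher and 6 lower (5 and 2 in rlt1/2 alone), summed to 122 to 141 CPM in the libraries labelled chr11/17 and 322 to 368 CPM in those labelled rlt1/2, against 244 to 245 CPM in fha2 and 268 to 333 CPM in Col, and their part in the iron genes was not tested.

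Phosphate genes moved apart between the mutant labels. Their median was log2 -1.60 in chr11/17 and 0.48 in rlt1/2, each over Col and fha2. Between the 2 labels 21 of 25 tested members were called, against 59.4% of all tested genes. That count is not particular to this list, since all 31 light-harvesting and all 13 meristem and organ boundary members were called as well. SQD2, a sulfolipid synthase, had 5.85 and 5.78 CPM in the libraries labelled chr11/17 and 69.7 and 90.2 CPM in those labelled rlt1/2, against 105 and 84.8 CPM in fha2 and 122 and 110 CPM in Col. MGD2, a galactolipid synthase, had 1.32 and 1.4 CPM in the libraries labelled chr11/17 and 22.4 and 25.8 CPM in those labelled rlt1/2, against 13.2 and 10.4 CPM in fha2 and 14 and 14.8 CPM in Col. MGD2 was therefore lowest in chr11/17 and highest in rlt1/2, with fha2 and Col between. SQD2 and MGD2 were picked out after their values were seen.

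Core members of the phosphate list included GPT2 and RNS1, both called higher. GPT2 (AT1G61800), a plastid glucose 6-phosphate carrier that also responds to sugar, had 476 and 501 CPM in the libraries labelled chr11/17 and 46.7 and 53.4 CPM in those labelled rlt1/2, against 7.33 and 8.25 CPM in fha2 and 3.01 and 3.41 CPM in Col. RNS1, a secreted ribonuclease, had 240 and 228 CPM in the libraries labelled chr11/17 and 18.4 and 19.1 CPM in those labelled rlt1/2, against 5.74 and 2.85 CPM in fha2 and 4.55 and 3.84 CPM in Col. Side to side the list had 9 called higher and 15 lower. In rlt1/2 alone this turned to 14 higher and 7 lower, and with side as the only term it was 6 and 2.

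Clock genes mostly fell, with 12 of 19 called lower and 3 higher, against 9 and 3 in rlt1/2 alone and 7 and 1 with side as the only term. PRR7, a pseudo-response regulator of the clock, had 12.9 and 13.9 CPM in the libraries labelled chr11/17 and 30.1 and 33.3 CPM in those labelled rlt1/2, against 60.8 and 61.5 CPM in fha2 and 55 and 61.3 CPM in Col. LUX, a component of the evening complex that overlaps a neighbour, rose to 75.1 and 63 CPM in the libraries labelled chr11/17 and 41.4 and 33.9 CPM in those labelled rlt1/2, against 18.9 and 21.2 CPM in fha2 and 22 and 22.1 CPM in Col. PRR3 and ELF4, the other 2 that were higher, lost their calls with side as the only term. The sources used here do not give the hour of harvest, and its part was not tested. The evening element AAATATCT stood in 5 of 19 clock promoters (26.3%) and 5.74% of all.

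Further lists moved in part. Of 24 glucosinolate genes 12 were called higher and 5 lower, against 34.6% and 34.4% of all tested genes, and the 2 myrosinases, which break glucosinolates down, were among the lower. The counts were 11 and 4 in rlt1/2 alone and 9 and 2 with side as the only term. TGG2 had 17.3 and 10.2 CPM in the libraries labelled chr11/17 and 424 and 408 CPM in those labelled rlt1/2, against 921 and 936 CPM in fha2 and 1468 and 1533 CPM in Col. The call of TGG2 was lost with side as the only term, at log2 -2.50. TGG1 fell by log2 1.77. Guard cell markers, since myrosinase is made in guard cells, had 8 of 13 called lower and none higher, but 3 lower and 2 higher in rlt1/2 alone, 11 and none in chr11/17 alone and 3 and none with side as the only term. They summed to 39.2 to 40.9 CPM in the libraries labelled chr11/17 and 95.6 to 111 CPM in those labelled rlt1/2, against 107 to 108 CPM in fha2 and 122 to 134 CPM in Col, and their part in the myrosinases was not tested.

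Trichome and epidermal genes had 11 of 16 called lower and 2 higher, but 5 lower both in rlt1/2 alone and with side as the only term. The epidermal homeodomain factors PDF2 and ATML1 fell by log2 1.03 and 0.90, while CPC and ETC3, small MYB proteins that restrain trichomes, rose by log2 1.06 and 1.62. Gibberellin genes had 12 of 24 lower and 6 higher, with 9 and 4 in rlt1/2 alone and 7 and 4 with side as the only term. GASA1, a gibberellin-regulated peptide, had 1077 and 1002 CPM in the libraries labelled chr11/17 and 223 and 224 CPM in those labelled rlt1/2, against 42.3 and 67.3 CPM in fha2 and 49.3 and 39.3 CPM in Col. GASA6 of the same family went the other way, with 6.35 and 3.19 CPM in the libraries labelled chr11/17 and 36.4 and 41.3 CPM in those labelled rlt1/2, against 194 and 144 CPM in fha2 and 517 and 568 CPM in Col, and it overlaps a neighbour.

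The remaining lists had calls in both directions, beside 34.6% of all tested genes called higher and 34.4% lower. Cell cycle and replication genes had 12 of 28 called higher and 7 lower (median log2 0.08), and PCNA1, the replication clamp, rose by log2 1.21. The 7 lower calls dropped to 3 without fha2 replicate 1 or Col replicate 2 or with total-count scaling, to 1 in rlt1/2 alone (8 higher) and to 0 with side as the only term (6 higher). Salicylic acid genes had 6 of 21 higher and 9 lower (median -0.05, but 0.12 with total-count scaling), and the balance was 9 higher and 3 lower in rlt1/2 alone and 5 and 3 with side as the only term. Cold and abscisic acid genes had 7 of 17 higher and 6 lower (median 0.00), with 9 higher and 4 lower in chr11/17 alone, 2 and 9 in rlt1/2 alone, and 2 and 5 with side as the only term.

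Sugar starvation genes had 7 of 19 higher and 11 lower (median -0.26), with 7 and 7 in rlt1/2 alone and 2 and 5 with side as the only term. Meristem and organ boundary genes had 6 of 13 higher and 4 lower, with CLV1, a receptor kinase of stem cell control, down by log2 1.49. This list had 3 higher and 5 lower in rlt1/2 alone and 3 and 3 with side as the only term. Type-A response regulators, the feedback inhibitors of cytokinin signalling, had 6 of 9 lower and 1 higher, ARR8, whose call was lost without any 1 of 5 libraries. In rlt1/2 alone 6 were lower and none higher, and with side as the only term 3 and none.

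**Figure D3:**
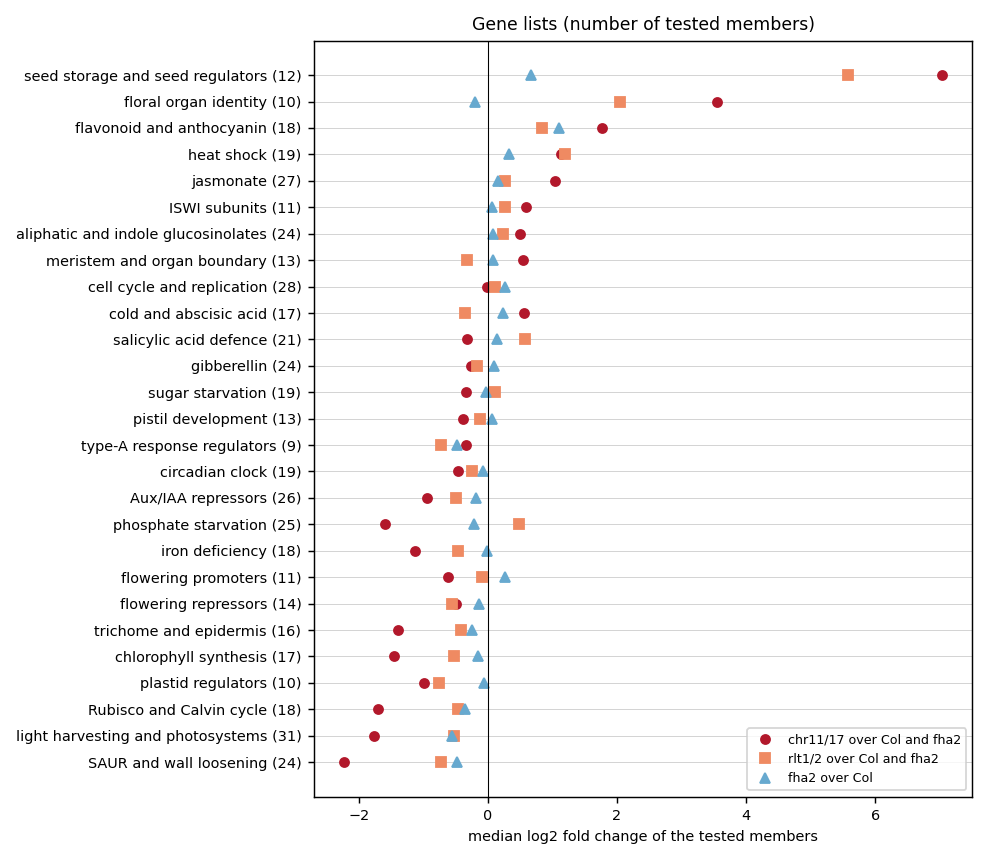
Median log2 fold change of the tested members of 27 gene lists (numbers of tested members in brackets), for chr11/17 over Col and fha2 (circles), rlt1/2 over Col and fha2 (squares) and fha2 over Col (triangles). Seed and floral lists lie far to the right under both mutant labels, photosynthesis lists lie to the left, and the phosphate list lies at -1.60 for chr11/17 and 0.48 for rlt1/2.

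Some genes stood at like levels under both mutant labels, among those with a side difference of at least 2 on the log2 scale. DELTA-VPE, a vacuolar protease of the seed coat, had 6.31 and 3.44 CPM in the libraries labelled chr11/17 and 4.91 and 4.9 CPM in those labelled rlt1/2, against 0.265 and 0.307 CPM in fha2 and 0.0548 and 0.0533 CPM in Col. BGL2, a glucanase of salicylic acid defence also called PR2, had 31.3 and 21.9 CPM in the libraries labelled chr11/17 and 21.9 and 28.2 CPM in those labelled rlt1/2, against 9.45 and 8.12 CPM in fha2 and 5.81 and 3.2 CPM in Col. KDR, a small bHLH-type protein of light signalling, and RTL2, an RNase III-like protein, fell by log2 2.19 and 2.48. In none of these 4 genes was the difference between the mutant labels called, which does not show that they are equal.

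BAM5, a beta-amylase, was high in all 3 mutants. It had 288 and 276 CPM in the libraries labelled chr11/17 and 249 and 285 CPM in those labelled rlt1/2, against 189 and 117 CPM in fha2 and 26.3 and 29.1 CPM in Col. It is a core gene because its fha2 libraries lie below the double mutants, yet fha2 itself was called higher than Col (log2 2.47, adjusted p = 4.85e-05), and its call between the sides was lost with side as the only term.

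The fha2 libraries were not placed with Col by every core gene. The test of fha2 against Col called 3148 of the 20866 tested genes (15.1%), with 1320 higher and 1828 lower in fha2. The core counts that follow are to be read against these. Whether the core differs from all tested genes in these shares was not tested. Of the 4143 core genes that were higher, 269 were called higher and 236 lower in fha2 over Col, and of the 4383 core genes that were lower, 496 were called lower and 165 higher. Scaling by total counts moved the median of fha2 over Col by 0.25, so the direction of small differences between these 2 genotypes depends on it.

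Some genes changed in opposite directions under the mutant labels. In 465 genes, 2.23% of those tested, both labels differed from the mean of Col and fha2 and in opposite directions, where both contrasts share the Col and fha2 libraries. Of the 465, 166 were higher in chr11/17 and 299 were higher in rlt1/2. PCC1, a pathogen- and clock-responsive gene, had 0.0454 and 0.0425 CPM in the libraries labelled chr11/17 and 54.4 and 47.6 CPM in those labelled rlt1/2, against 7.55 and 4.21 CPM in fha2 and 12.2 and 13.6 CPM in Col. HB4, a homeodomain-leucine zipper factor of shade response, had 0.408 and 0.85 CPM in the libraries labelled chr11/17 and 20.9 and 20.8 CPM in those labelled rlt1/2, against 6.27 and 6.84 CPM in fha2 and 7.62 and 8.58 CPM in Col. Both genes sat below fha2 and Col in chr11/17 and above them in rlt1/2, with no overlap.

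RTFL18, a small peptide of the ROT4 family, followed the same pattern, with 0 and 0.17 CPM in the libraries labelled chr11/17 and 11.1 and 9.71 CPM in those labelled rlt1/2, against 3.89 and 4.12 CPM in fha2 and 4.93 and 6.13 CPM in Col. HIS1-3, a linker histone of water stress, went the other way, with 81 and 58.8 CPM in the libraries labelled chr11/17 and 7.53 and 6.29 CPM in those labelled rlt1/2, against 7.37 and 8.25 CPM in fha2 and 13.1 and 21.1 CPM in Col. PR1, the marker gene of salicylic acid defence, had 5.53 and 16.2 CPM in the libraries labelled chr11/17 and 0.438 and 0.564 CPM in those labelled rlt1/2, against 2.08 and 1.14 CPM in fha2 and 5.54 and 1.87 CPM in Col. In PR1 the lower chr11/17 library is level with the higher Col library, and in HIS1-3 the rlt1/2 libraries overlap those of fha2.

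**Figure D4:**
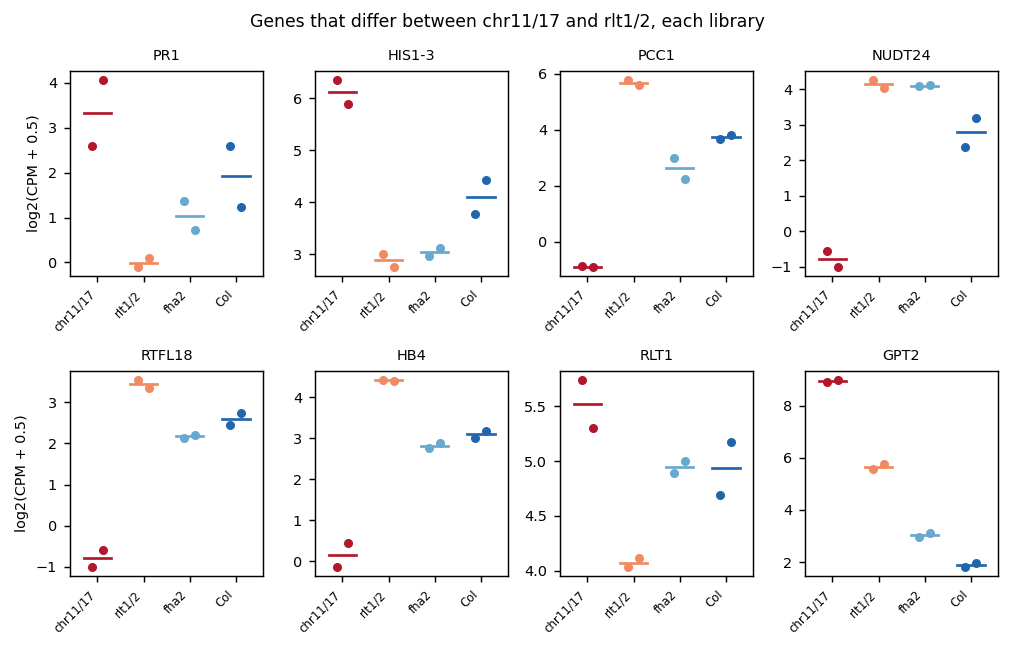
Log2 of CPM plus 0.5 in each library (points) and the mean of 2 libraries (lines) for 8 genes that differed between the mutant labels, with chr11/17, rlt1/2, fha2 and Col from left to right. PCC1, RTFL18 and HB4 lie lowest in chr11/17 and highest in rlt1/2, while GPT2 falls in steps from left to right.

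Gene length, chromosome and neighbouring genes, which the core rule did not use, were compared as descriptions, beside the level of the genes. The 4143 core genes that were higher had a median annotated gene length of 2006 bases, the 4383 that were lower 2788 bases and all tested genes 2353 bases. Their median levels were 18.3, 16.4 and 12.3 CPM, taken from the same values that the core rule compares, so level is not independent of the rule. Both directions were spread over the 5 chromosomes, with 18.7% to 20.8% of the tested genes of a chromosome in the core as higher and 20.1% to 22.4% as lower. Leaving out overlapping genes, the next tested gene along the chromosome was core higher for 22.8% of the core higher genes and for 17.2% of the core lower genes, against 19.4% over all tested genes.

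Promoter letters differed a little between the directions. The site II form TGGGCC stood in 21.2% of the promoters of core higher genes, 13.3% of those of core lower genes and 17.1% of all tested genes. The I-box GATAAG stood in 13.6%, 16.4% and 14.6% in the same order. Among the 196 core higher genes with a gap of at least 1 the RY element stood in 22.4%, against 10.1% of all core higher genes, and among the 145 core lower genes with such a gap the I-box stood in 21.4% and the site II form in 8.97%. The auxin form TGTCTC and the telo-box AAACCCTA stood in 12% and 4.59% of core higher promoters and 13.5% and 3.51% of core lower promoters, against 12.9% and 4.23% of all. All motifs were read on both strands.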

How the data were processed

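The values are expected counts per gene, deposited by the authors as 1 table of 25198 genes and 8 libraries. Per the submitters' processing notes, which give no versions or order, Bowtie2, RSEM, DESeq2 and TAIR10 were used, and the sources used here do not say whether counting used strand. Expected counts were rounded to whole numbers and tested with edgeR 4.0.16 (R 4.3.3): TMM factors, genes kept by filterByExpr, a quasi-likelihood fit with 4 genotypes, and the contrast of the mean of chr11/17 and rlt1/2 over the mean of Col and fha2, with Benjamini-Hochberg adjustment over 20866 genes at 0.05. The fit was tested on simulated data. Levels are CPM scaled by TMM, and the gap of the core is on log2 of CPM plus 0.5. Symbols, positions and promoters came from the RefSeq annotation of TAIR10.1, in which all 25198 IDs matched. Of the listed genes 25.4% overlap another one, and since strand is unknown, how reads in the shared bases were assigned is uncertain. Fold changes with a neighbour's counts added take in the whole neighbouring gene. They therefore also carry that gene's own level and change.

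Members and lists were chosen with earlier results of these data known. Named genes are the ISWI members, the 10 highest and 10 lowest core genes with at least 2 CPM in each library of the higher side and no overlap, up to 2 core members per list by smallest adjusted p, the 4 most equal and 4 most opposite between the mutant labels each way, those next to the border of the core, and exceptions within lists. Other list members given with values were picked after their values were seen. Replicate numbers do not pair the libraries, since the correlations of same-numbered deviations were -0.12 to 0.13. Replicates differed by more than counting noise in every genotype. Intervals and bounds cover counting error only. Alternatives were DESeq2 1.42.0, limma 3.58.1 (voom), other scalings and filters, a replicate block, side as the only term, leaving out libraries, and contrasts that leave out a genotype within the same fit. List counts with side as the only term and for rlt1/2 or chr11/17 alone were added after seeing the data.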

Additional observations from a re-analysis of the deposited data

Results flagged for a closer look

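These results differ between the mutant labels, by the edgeR quasi-likelihood test of chr11/17 against rlt1/2, while each label was set against the same mean of Col and fha2. There were 465 genes called in both labels with opposite signs. The log2 difference of chr11/17 minus rlt1/2 was 1.49 for RLT1, which is itself named by the rlt1/2 label. It was 4.43 for PR1, 3.34 for HIS1-3 and 3.40 for AT14A. AT14A stands at 2 loci (AT3G28290 and AT3G28300) with identical values in every library, 11.5 and 7.06 CPM in the libraries labelled chr11/17 and 1.14 and 0.607 CPM in those labelled rlt1/2, against 3.49 and 2.76 CPM in fha2 and 2.58 and 3.09 CPM in Col, so the split of reads between the copies is uncertain. The difference was -10.00 for PCC1, -6.80 for RTFL18 and -5.02 for HB4. It was -7.53 for NUDT24, a nudix hydrolase homolog with 0.181 and 0 CPM in the libraries labelled chr11/17 and 18.7 and 16 CPM in those labelled rlt1/2, against 16.6 and 16.8 CPM in fha2 and 4.71 and 8.64 CPM in Col. In NUDT24 the rlt1/2 libraries overlap those of fha2 and lie above Col.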

How the results depend on the processing

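Of 250 counts of genes under an alternative, 223 stayed within 1.5 times the reported count and 27 did not. The counts of 7226 higher and 7186 lower genes became 4162 and 3429 with side as the only term, 4699 and 4482 for rlt1/2 alone (the contrast without the genotype chr11/17, in the same fit), and 2137 and 2118 at a log2 fold change of at least 1. The core fell to 196 higher and 145 lower genes at a gap of at least 1, and to 2400 lower genes with total counts. For fha2 against Col, total counts gave 6059 higher and 665 lower, DESeq2 gave 812 higher, and leaving out 1 library gave 171 to 1744 higher and 273 to 2306 lower. For rlt1/2 against Col total counts gave 8108 higher and 1849 lower. For rlt1/2 against fha2 leaving out 1 library gave 2656 to 4660 higher and 2352 to 4574 lower. Fits that leave out a library leave 1 library in that genotype, assumed to vary like the others.

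With a replicate block 7170 genes were called higher and 7135 lower, and no other count left 1.5 times its reported value. The numbers do not pair the libraries. Of 1764 values of named genes under an alternative 5 reversed, 46 lost and 3 gained a call. With the overlapping loci added CHR17 was at -0.02, RFI2 at -0.01 and TT19 at -0.09. With side as the only term PCC1 was at 1.45, RTFL18 at 0.14 and HB4 at 0.55, while the main contrast called each of them lower. The main contrast averages the log2 levels of the 2 genotypes of a side. The fit with side as the only term pools the libraries of a side. Mean CPM over those libraries was higher in the double mutants, at 25.5 against 9.4 (PCC1), 5.25 against 4.77 (RTFL18) and 10.7 against 7.33 (HB4). Why the mutant labels differ in these genes was not tested. List counts and medians changed in 103 of 1152 cases. Depth limits statements on genes near 0, such as CRU3, SESA3 and SAUR22.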
